A study of Caenorhabditis elegans with 2 samples.

Results

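Divergent gene pairs are neighbouring genes that are transcribed away from each other, so that 1 stretch of DNA lies upstream of both. The regions described here are the strongest ChIP-seq regions of the transcription factor PHA-4 that lay in the promoters of such pairs. They were chosen by signal and position. The 3000 regions with the highest pooled signal were taken from 30000 deposited regions, and those whose summit, the point of highest signal, lay in promoter windows of at least 1 gene on each strand were kept. A promoter window covered the 1000 bp before and the 200 bp after each annotated 5′ end of a protein-coding gene. This gave 496 divergent regions, or 16.5% of the 3000 (exact 95% interval 15.2 to 17.9%). Of the other regions, 1286 lay in the window of 1 gene only and are called single-gene promoter regions, 36 lay in windows of several genes of 1 strand and 1182 lay in no window. Pairs are named with the minus-strand gene first.

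The study measured PHA-4 binding in whole Caenorhabditis elegans at the L4 stage, the last before adulthood, in 1 group with 2 biological replicates. Strain OP37 has the genotype unc-119(ed3) III; wgIs37, where wgIs37 is the insertion that supplies eGFP-tagged PHA-4, and the animals were of mixed sex. The labels give pha-4 as the antibody target, while the sample descriptions speak of ChIP-seq against eGFP-pha-4, so which antibody was used is not clear. What drives the insertion is not stated in the labels. There was no second condition, so the questions are which gene pairs carried the regions, where the summits lay between the genes, and which short sequences were found there. In whole larvae, binding in more cells and more binding per cell cannot be told apart.

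PHA-4 is the FoxA factor of the worm. FoxA proteins bind DNA with a winged-helix domain, can bind sites in closed chromatin, and in C. elegans PHA-4 specifies the pharynx, the feeding organ, and later acts in the intestine, the somatic gonad and the response to diet. Divergent promoters in this compact genome are often shared by housekeeping genes, which are needed in nearly every cell.

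Sequences of 101 bases around the summit are shown for the 6 strongest divergent regions on chromosomes II to V and X, because these carry the highest signals, and for plp-2/rbg-1, the only one of the 12 strongest there to hold the PHA-4 consensus TRTTKRY, in which R stands for a purine, Y for a pyrimidine and K for either keto base (guanine or thymine). Capitals mark a consensus match, or a match on either strand to one of the 3 leading 7-base sequences of the comparison with single-gene regions described further on. Of these, CGCTCCA stands in the windows of rpl-20/Y17G9B.5, rpl-12/lin-54 and Y48B6A.1/rpl-43. TGGAGCG is its reverse complement. The window of eef-1A.1/rfc-4 holds ACCGTAC, and none of the 7 windows holds CGAGACC. All are from the plus strand of ce11, which has the sequence of WBcel235. The intervals are IV:4750032-4750132, V:10965654-10965754, III:6972040-6972140, III:5679084-5679184, IV:13240642-13240742, II:14154508-14154608 and X:14983416-14983516, in the order of the lines.
rpl-20/Y17G9B.5: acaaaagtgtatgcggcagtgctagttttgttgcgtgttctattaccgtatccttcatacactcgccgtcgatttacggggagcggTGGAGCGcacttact
ctf-4/eef-1G: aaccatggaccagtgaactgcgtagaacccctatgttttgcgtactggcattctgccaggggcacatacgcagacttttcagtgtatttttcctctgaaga
eef-1A.1/rfc-4: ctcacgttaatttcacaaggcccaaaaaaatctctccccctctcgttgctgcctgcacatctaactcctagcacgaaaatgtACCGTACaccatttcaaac
ska-3/rps-12: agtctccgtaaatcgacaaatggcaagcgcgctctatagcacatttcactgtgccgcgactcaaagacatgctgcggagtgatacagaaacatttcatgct
rpl-12/lin-54: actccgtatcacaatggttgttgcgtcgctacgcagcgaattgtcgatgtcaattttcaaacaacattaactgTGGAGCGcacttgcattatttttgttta
Y48B6A.1/rpl-43: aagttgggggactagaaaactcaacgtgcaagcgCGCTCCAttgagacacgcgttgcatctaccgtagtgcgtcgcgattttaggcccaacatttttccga
plp-2/rbg-1: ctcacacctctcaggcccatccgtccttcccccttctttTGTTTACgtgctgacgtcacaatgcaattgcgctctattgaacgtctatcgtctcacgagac

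The consensus match at plp-2/rbg-1 is TGTTTAC. The windows of ctf-4/eef-1G and ska-3/rps-12 held neither a consensus match nor any of the 3 leading sequences.

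ACCGTAC stood in 7 divergent regions as the end of a longer stretch, TGAAACNAGTG followed by any 2 bases and ACCGTAC. The stretch was read from the members: TGAAAC began 13 bases before ACCGTAC at 8 of 44 sites near their summits, and the fixed bases are those shared by all 8. The 5 strongest on chromosomes II to V and X are printed with 15 bases to each side, read 5′ to 3′ along the strand that carries the stretch, with its fixed blocks in capitals. They were chosen after their values were seen. The first and last lie on the plus strand and the other 3 on the minus strand of ce11, at IV:12391279-12391328, III:10218751-10218800, III:8130502-8130551, II:13872694-13872743 and II:4698428-4698477.
rps-23/dpm-3: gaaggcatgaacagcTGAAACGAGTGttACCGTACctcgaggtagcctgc
rde-4/cox-14: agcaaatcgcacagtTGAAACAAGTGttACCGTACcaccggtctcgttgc
rpl-21/C14B9.10: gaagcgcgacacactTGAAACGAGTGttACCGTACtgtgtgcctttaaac
cup-14/ndub-8: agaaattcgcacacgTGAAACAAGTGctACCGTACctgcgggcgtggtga
rpn-5/scc-1: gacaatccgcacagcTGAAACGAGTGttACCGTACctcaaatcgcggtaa

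TGTTTGC is the form of the consensus found most above its flank. It is shown for the 5 strongest divergent regions on the same chromosomes that hold it, again chosen after their values were seen and read along the strand that carries it. Those of natb-1/abhd-12 and ZK632.10/ZK632.11 are on the plus strand and the others on the minus strand of ce11, at V:8611215-8611251, V:7983790-7983823, X:14853935-14853963, III:9827764-9827800 and IV:654920-654956. Some stretches are shorter because they end 50 bp from the summit.
fip-4/smk-1: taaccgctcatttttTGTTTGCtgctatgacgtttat
natb-1/abhd-12: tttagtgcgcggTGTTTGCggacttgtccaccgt
C27C12.1/C27C12.4: gagtttgcgtcgccgTGTTTGCacatttt
ZK632.10/ZK632.11: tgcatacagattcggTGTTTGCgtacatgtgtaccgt
rpl-15/K11H12.8: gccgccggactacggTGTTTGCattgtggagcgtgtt

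Signal here is the value that the authors deposited for each region, on a scale the files do not state. It chose the members, so it is described without a test. Divergent regions had a median pooled signal of 28.0 (range 18.4 to 107), single-gene promoter regions 25.9 (18.4 to 127) and the strongest 3000 together 25.9 (18.4 to 226). The share of divergent regions was 20.8% among ranks 1 to 500, 18.8%, 18%, 16.4% and 14.2% in the next 4 bins of 500, and 11.0% among ranks 2501 to 3000. Below the limit it was 9.13% (ranks 3001 to 6000), 6.03% (6001 to 10000), 3.18% (10001 to 20000) and 2.20% (20001 to 30000). Windows of both strands covered 2.35% of the genome's bases, a level the share approached only in the lowest ranks. Just inside the limit lay csa-1/wdfy-2 with a signal of 18.38 and rab-8/D1037.1 with 18.37, and just outside it dog-1/F33H2.2 with 18.34 and F13G3.6/F13G3.7 with 18.32.

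**Figure D1:**
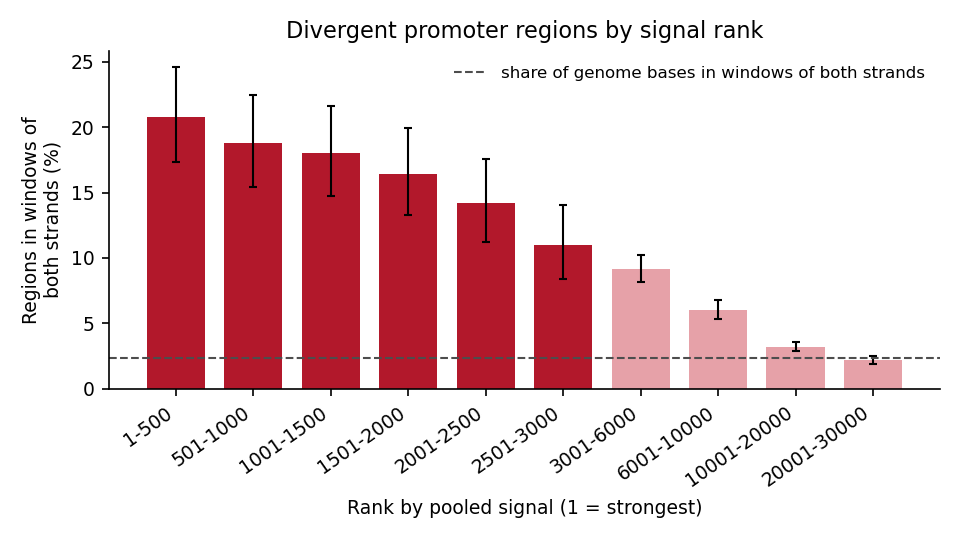
Percent of regions whose summit lay in promoter windows of both strands, by rank of the pooled signal, with exact 95% binomial intervals; dark bars are the strongest 3000 and light bars the lower ranks. The bars run from 20.8% at ranks 1 to 500 to 2.20% at ranks 20001 to 30000, and the dashed line is the 2.35% of genome bases in such windows.

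Both replicates entered the pooled signal, so their lists describe the members and do not test them. A region within 150 bp of the summit was found in both replicates for 483 of 496 divergent regions (97.4%), against 95.9% of the strongest 3000, and 7 were matched in replicate 1 only and 6 in replicate 2 only. On the log2 scale, replicate 1 over replicate 2 had a median of 0.11 (SD 0.85 over 483 regions), and 106 of them (21.9%) differed by more than 2-fold. Divergent regions stood among the strongest 3000 of both replicates' own lists in 63.1% of cases, single-gene promoter regions in 52.3% and all of the strongest 3000 in 53.0%. Divergent regions tended to hold higher pooled ranks, which can by itself raise their share, and the part of this was not tested. Across the 483 regions the replicates' signals had a Pearson r of 0.27 and a Spearman rho of 0.25, which describe regions of the same 2 libraries. For the strongest 3000 the Pearson r was 0.16. A cut on the pooled signal can by itself lower such values, so they do not measure agreement over all regions. The authors' list thresholded by the irreproducible discovery rate (IDR) held exactly the 1484 regions of highest pooled signal. It contained 287 divergent regions (57.9%), against 49.5% of the strongest 3000, which restates their ranks.

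**Figure D2:**
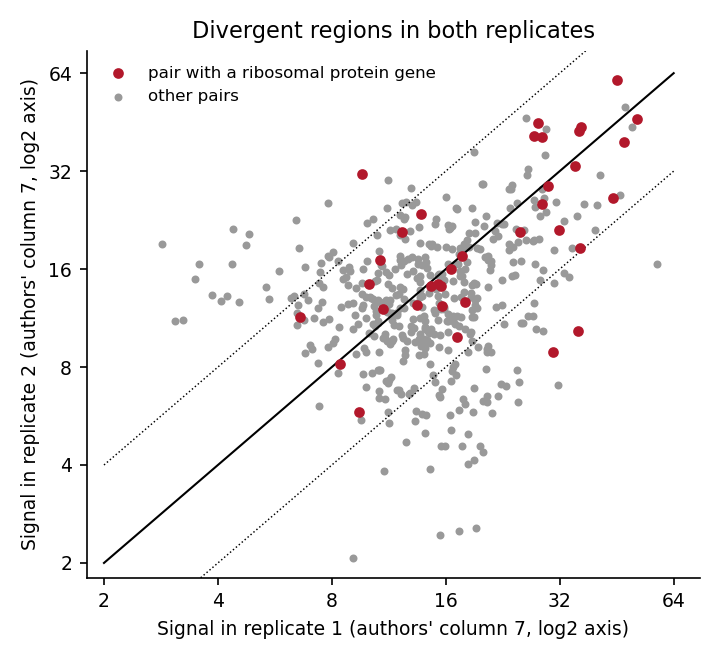
Signal of each divergent region in replicate 1 (horizontal, log2 axis) and replicate 2 (vertical, log2 axis) for the 483 regions matched in both; the solid line marks equal signal and the dotted lines a 2-fold difference. Red points are pairs in which 1 or both genes encode a cytosolic ribosomal protein, and 106 of all points lie more than 2-fold apart.

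The strongest divergent regions lay mainly beside genes of protein synthesis and breakdown. Of the 20 strongest, 10 had a cytosolic ribosomal protein gene, 2 a translation elongation factor gene and 2 a proteasome gene. The region between rpl-20 (WBGene00004432, a large-subunit ribosomal protein) and Y17G9B.5 had a signal of 45.2 in replicate 1, 61.2 in replicate 2 and 107 pooled, with its summit 304 bp upstream of rpl-20 and 158 bp upstream of Y17G9B.5. The region between ctf-4 and eef-1G, an elongation factor 1 subunit, had 47.6 and 50.5, and its summit lay 165 bp from ctf-4 and 15 bp from eef-1G. The region of rps-20, a small-subunit ribosomal protein gene, and ekl-4 had 51.1 and 46.3. These 3 were alike in both replicates.

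Signals of 49.5 and 43.6 were found between eef-1A.1, which encodes elongation factor 1-alpha, and rfc-4, a subunit of the clamp loader of DNA replication, with a summit 378 bp from the first and 163 bp from the second. The region between rpl-12, which encodes another large-subunit protein, and lin-54, the DNA-binding subunit of the DREAM repressor complex, had 36.1 and 42.4. Its summit was 41 bp upstream of rpl-12 and 352 bp upstream of lin-54. Less alike were the values at hsp-110/rpn-3, a chaperone gene and a gene of the proteasome lid, with 57.9 in replicate 1 and 16.6 in replicate 2. At rpn-9/T06D8.9, which holds another proteasome lid gene, they were 46.3 and 27.0.

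The remaining members of the first 20 had pooled signals from 61.3 to 86.2. They were ska-3/rps-12, Y48B6A.1/rpl-43, rps-10/rpl-24.1, lpd-3/Y47G6A.3, rpl-31/sac-2, Y71H2AM.20/cox-6B, ifet-1/rps-1, plp-2/rbg-1, rps-13/nfx-1, ify-1/rpl-22, ahsa-1/C01G10.7, nap-1/praf-3 and pifk-1/tbc-11. All of the first 20 were in the IDR list, and 6 of them held the PHA-4 consensus within 50 bp of the summit, among them rpl-31/sac-2 and the last 3 named.

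The rule by which regions were chosen leaves little room for other arrangements, so the orientation of the pairs is a description. Of the 496 pairs, 494 were head to head, with the minus-strand 5′ end at the lower coordinate, and in 464 (93.5%) the summit lay between both 5′ ends. In 30 further head-to-head pairs the summit lay just outside the gap, within the downstream part of 1 window. The 5′ ends overlapped in fip-4/smk-1, by 244 bp, and in Y71G12B.32/Y71G12B.2, by 38 bp. The 496 regions belonged to 488 different pairs. Of these pairs, 8 had 2 regions each: icd-1/vps-32.1, mog-1/alx-1, larp-5/sld-2, C47E8.4/hsp-90, F40F11.3/mig-38, ZK632.10/ZK632.11, T26A8.4/pdtf-1 and ugtp-1/sma-2. Windows of 3 or 4 genes held 28 regions and 1 region, and 1005 genes in all had a divergent region.

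The gap between the paired 5′ ends had a median of 496 bp (95% order-statistic interval 470 to 543, middle 50% of regions 317 to 768.5 bp), which the windows limit. It was at most 300 bp in 113 pairs, at most 500 bp in 252 and over 1000 bp in 54. The shortest gaps, of 12 to 82 bp, were those of F32D8.14/F32D8.5, Y59E9AL.36/nbet-1, gei-14/slc-25A32, trm-1/ints-2 and Y57E12AL.6/Y57E12AL.1. The longest, of 1482 to 1677 bp, were those of let-70/klc-1, pld-1/C04G6.2, T26A8.4/pdtf-1, nmat-2/rab-5 and F20D6.9/srp-7. At T26A8.4/pdtf-1 the strongest region paired 5′ ends 1545 bp apart and the other region a different pair of 5′ ends, 145 bp apart.

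Summits lay nearer, at the median, to the midpoint of the gap than to either 5′ end. In gaps over 1000 bp the rule leaves out summits near either end, which by itself favours central positions. Among the 464 summits between the ends, the median distance was 91 bp from the midpoint, 147 bp from the nearer 5′ end and 345.5 bp from the farther one, and 288 (62.1%) lay in the middle 50% of the gap. The nearer gene was on the plus strand in 255 and on the minus strand in 209. Relative to the nearest 5′ end, the summit lay a median of 138 bp upstream at divergent regions and 242 bp upstream at single-gene promoter regions, counting downstream positions as negative. At divergent regions the nearer of the pair genes was taken, which by itself makes the distance smaller. No protein-coding gene body covered the summit in 432 divergent regions (87.1%), against 72.8% of single-gene promoter regions. They lay in introns in 24 divergent regions, in untranslated exons in 33 and in coding sequence in 7, and 35 lay in an annotated non-coding RNA gene.

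**Figure D3:**
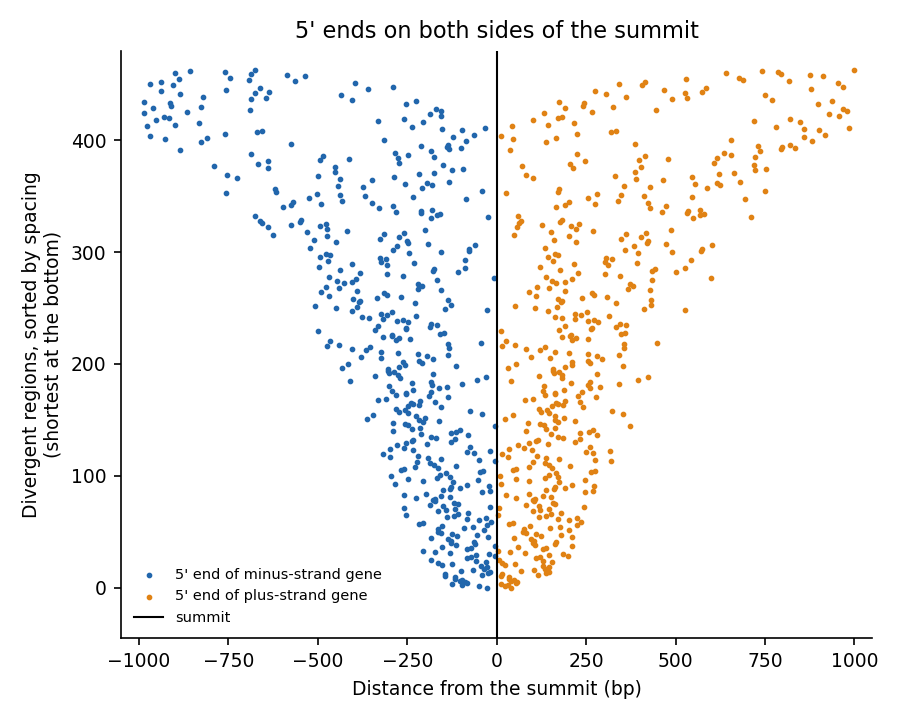
Positions of the minus-strand (blue) and plus-strand (orange) 5′ ends relative to the summit (bp, black line at 0) for the 464 divergent regions with the summit between both ends, each at 1 height and sorted by the distance between the ends, shortest at the bottom. The nearer end lay a median of 147 bp and the farther end a median of 345.5 bp from the summit.

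The annotation holds 2561 neighbouring head-to-head pairs of protein-coding genes with 5′ ends up to 2000 bp apart, and 528 of them (20.6%) had a summit of the strongest 3000 between the ends. That share was 5.67% for gaps of 1 to 150 bp, 21.8% for 151 to 300 bp, 28.8% for 301 to 450 bp and 28.3% for 451 to 600 bp. It was 22.5% for 601 to 800 bp and between 15.7 and 19.6% in the 3 bins above. Such a summit need not lie in promoter windows of both strands, so not all of these are divergent regions. Gaps of 1501 to 2000 bp held such a summit in 64 pairs, but only 4 divergent regions had a gap of that size. By chromosome, 28.8% of the neighbouring pairs on III, 27.8% on I, 22.7% on IV, 20.6% on II and 19.7% on X had such a summit. On V the share was 10.1%, and its interval of 7.92 to 12.7% lay below those of the other 5. Chromosome X held 24 divergent but 255 single-gene promoter regions, and windows of both strands covered 0.723% of its bases, against 2.41 to 2.89% on the autosomes.

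Gene groups are described by counts. The groups follow gene names, so some members may have functions other than the one that names the group. The groups were assembled with earlier results of these data known, so the counts lend no independent support. Of all 19973 protein-coding genes, 5.03% had a divergent region, and 29.5% had a promoter window that overlaps one of the opposite strand, which a gene needs for such a region. In the groups described first, up to endosome and Rab genes, such windows were more common. They ranged from 40.4% of RNA polymerase and general transcription genes to 72.7% of proteasome genes, so 5.03% is not a like background. Among genes with such a window, 16.7% (ubiquitin enzymes) to 80% (DREAM complex genes) in these groups had a divergent region, against 17.1% over all genes. Between these lay 70.4% of cytosolic ribosomal protein, 58.3% of proteasome and 57.6% of splicing genes, and the others ranged from 30.4 to 45.5%. In 303 regions neither pair gene was in any of the 21 groups. Genes known only by a sequence name made up 29.5% of pair genes and 45.3% of all protein-coding genes.

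Cytosolic ribosomal protein genes had the largest number of the 21 groups, with 38 of 83 (45.8%), and 70.4% of the 54 whose windows allow it, against 17.1% over all genes. A further 19 of the 83 had a single-gene promoter region only. In all, 71.1% of the group had a region of any kind, against 11.4% of all genes. The 35 divergent regions of ribosomal protein genes had pooled signals from 19.1 to 107. Only 5 of them held the PHA-4 consensus (14.3%), against 192 of the other 461 divergent regions (41.6%). Both genes of a pair encoded ribosomal proteins in 3 regions. These were rps-10/rpl-24.1 with 28.1 in replicate 1 and 45.1 in replicate 2, rps-14/rpl-36 with 29.8 and 28.8, and rpl-39/rps-30 with 17.1 and 9.88. Among translation factors 10 of 40 (25%) had a divergent region, with eef-1G and eef-1A.1 in front, among mitochondrial ribosomal proteins 12 of 70 (17.1%), led by mrps-7/Y57G11C.3 and M01F1.4/mrpl-35, and among tRNA synthetases 5 of 32 (15.6%), led by fars-1/rbm-5 and T11G6.2/hars-1.

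Of the proteasome genes, which encode the protease that degrades ubiquitinated proteins, 14 of 33 (42.4%) had a divergent region. After rpn-9 and rpn-3 came rpt-2/aps-1, an ATPase subunit gene, with a pooled signal of 46.3, and pas-4/rpb-3 with 46.0, where a core subunit gene faces a gene of RNA polymerase II. Chaperones and foldases followed with 20 of 93 (21.5%), led by hsp-110 and by cct-6/alh-9, a chaperonin subunit gene, with 56.8. The heat-shock pair hsp-16.2/hsp-16.41, which encodes small heat-shock proteins, stood near the limit with 9.11 and 12.6 in the replicates. Ubiquitin enzymes had 5 of 64 (7.81%), the strongest at aka-1/ubc-6 and vps-25/uba-2. Among those whose windows allow it the share was 16.7%, near the 17.1% over all genes.

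RNA processing was represented by splicing genes, of which 19 of 54 (35.2%) had a divergent region, the strongest at bath-42/prp-8, which holds the gene of a core spliceosome protein, with 58.8. Both genes were splicing genes in snr-3/rsp-5 (an Sm protein and an SR protein), with 18.99 and 36.6, and in rsp-2/rsp-1, an SR protein pair, with 20.7 and 9.29. Nuclear pore and transport genes had 10 of 40 (25%), led by imb-1/mfsd-13.1, which holds an importin beta gene, and uvs-1/xpo-1. Genes of RNA polymerase and general transcription had 7 of 57 (12.3%), led by apb-1/mdt-19 and pas-4/rpb-3.

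Of cell cycle and DNA replication genes 16 of 74 (21.6%) had one, with rfc-4 first and C02F5.10/knl-1, a kinetochore gene, next at 47.8. The small DREAM group had 4 of 8, at rpl-12/lin-54, lin-53/nra-2, vps-51/lin-35 and efl-1/fbxa-90, where lin-35 encodes the worm's retinoblastoma protein and efl-1 an E2F factor. Respiratory chain and ATP synthase genes had 13 of 64 (20.3%), led by cox-6B and atp-3/F27C1.2. Secretory pathway genes had 8 of 43 (18.6%), led by sec-15/C28G1.2 and mrg-1/spcs-2 and including a pair of translocon genes, sec-61.B/trap-3, with 14.2 and 9.69. Endosome and Rab genes had 11 of 64 (17.2%), led by icd-1/vps-32.1 and vps-51/lin-35.

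The 6 remaining groups had smaller shares. Their members also differed in how often a window of the opposite strand allows a divergent region, from 16.8% of the transcription factor genes to 34.6% of the C-type lectins, against 29.5% of all genes. Among the genes with such a window, 12.3% in the transcription factor classes, 8.33% in the autophagy and vacuolar ATPase group, 7.48% of F-box genes, 6.52% of collagens, 1.67% of chemoreceptors and 1 of 83 C-type lectins had a divergent region, against 17.1% over all genes. Among the 387 genes of 7 transcription factor classes 8 (2.07%) had a divergent region, led by rop-1/nhr-232 and nhr-184/nstp-8. Collagens had 3 of 156 (1.92%), led by col-38/rpl-5, whose other gene encodes a ribosomal protein, and col-2/ndc-80. F-box genes had 8 of 322 (2.48%), including fbxa-76/fbxa-77 with 23.9 and 15.2 and efl-1/fbxa-90. C-type lectins had 1 of 240, clec-87/rsa-1, and chemoreceptors 5 of 1308 (0.382%), led by srh-89/F25E5.1 and srh-282/sma-10. Autophagy and vacuolar ATPase genes had 1 of 43, C17H12.2/vha-8, whereas 14 of them had a single-gene promoter region only, and 34.9% of the group had a region of any kind, against 11.4% of all genes. Both genes stood in different groups in 16 regions.

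**Figure D4:**
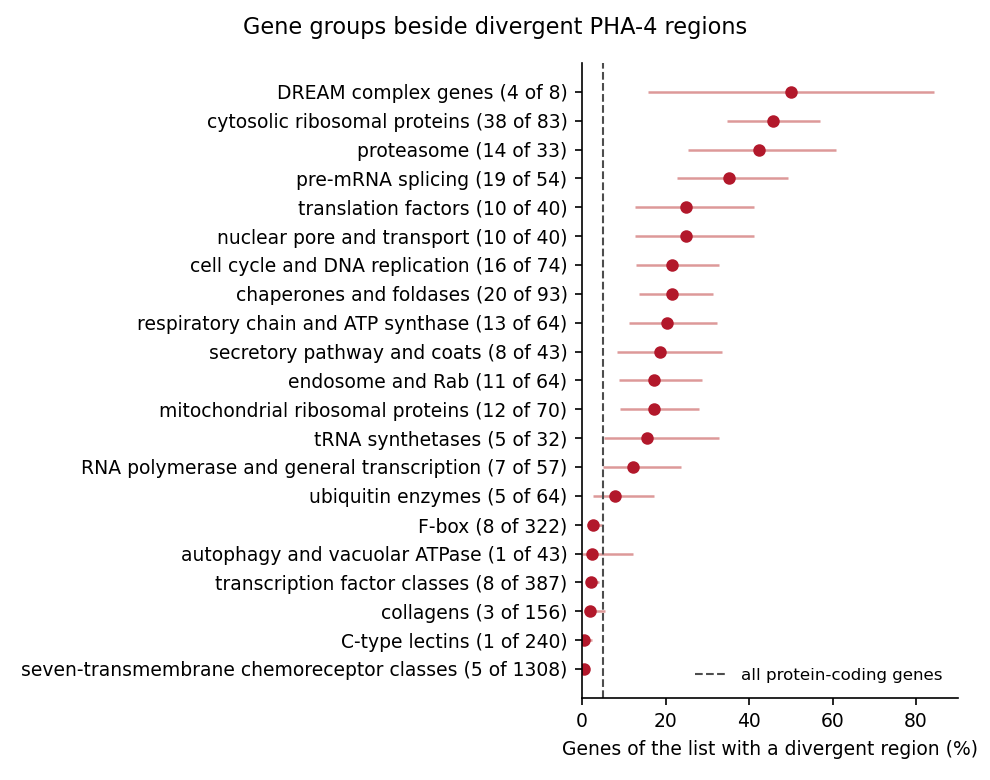
Percent of the genes of each group with a divergent PHA-4 region (points, with exact 95% binomial intervals and, in brackets, genes with a region of genes in the group), beside the 5.03% of all protein-coding genes (dashed line). Cytosolic ribosomal proteins stand at 45.8%, proteasome genes at 42.4% and chemoreceptors at 0.382%. The shares are of all genes in a group, whether or not a window of the opposite strand allows a divergent region.

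The rule did not use sequence, so sequence was tested. Windows of 50 bp to each side of the summit were set against flanks, equally wide windows 500 bp away on the lower-coordinate side (exact two-sided binomial test on regions in which only 1 window held the sequence). They were also compared with the summit windows of single-gene promoter regions (two-sided Fisher's exact test). The Benjamini-Hochberg adjustment ran over 14 sequences, all searched on both strands. Earlier results of these data were known when the 14 were listed, so their choice may not be independent of these regions. The tests treat regions as the units and do not measure the spread between replicates. Of the 14 sequences, 5 were more frequent at divergent summits than in the flanks (35.7%) and 1 was less frequent.

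The PHA-4 consensus TRTTKRY stood in 197 divergent windows (39.7%), against 26.0% of flanks (143 regions with it only at the summit and 75 only in the flank, exact binomial test, adjusted p = 1.35e-05), 47.6% of the strongest 3000 and 31.9% of windows of the same width centred 150 bp upstream of all protein-coding genes. It was less frequent than at single-gene promoter summits, where 614 of 1286 windows (47.7%) held it (difference −8.03 percentage points, Fisher's exact test, adjusted p = 0.00866). Flank centres lay inside protein-coding genes in 85.5% of divergent regions, whereas summits mostly lay outside them. With flanks only 150 bp away, of which 34.7% lay inside genes, the flank value was 34.3% and the difference of 5.44 points missed the threshold (exact binomial test, adjusted p = 0.122). Among regions with the summit 0 to 300 bp upstream of the nearest 5′ end, a comparison added after the data were seen, the shares were 40% at divergent and 45.3% at single-gene regions (Fisher's exact test, adjusted p = 0.159). The share hardly varied with signal, from 36.3 to 44.4% in 4 bins of equal size, and 60 regions had a match within 10 bp of the summit.

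The forms of the consensus did not move alike. TGTTTGC was found in 71 divergent windows (14.3%), against 1.61% of flanks (exact binomial test, adjusted p = 1.36e-12) and 2.99% of all promoters. Single-gene promoter regions held it in 9.49% of windows, a difference of 4.83 points (Fisher's exact test, adjusted p = 0.0136), which did not pass among summits 0 to 300 bp upstream (adjusted p = 0.159) or from replicate 2's list alone (adjusted p = 0.0742). TGTTTAC went the other way, with 3.43% of divergent and 8.16% of single-gene windows (Fisher's exact test, adjusted p = 0.00314), although it too stood above the flank share of 0.202% (adjusted p = 3.38e-04). TATTTGT was at 2.02% in divergent and 4.51% in single-gene windows (Fisher's exact test, adjusted p = 0.0296). Of the 71 windows with TGTTTGC only 1 was among the 35 regions of ribosomal protein genes.

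Of the remaining 10 sequences, 3 were less frequent than at single-gene promoters and 7 did not pass that test. TGATAA, the core bound by GATA factors, which include the main regulators of the intestine, stood in 3.83% of divergent windows, below both the flanks at 11.7% (exact binomial test, adjusted p = 1.31e-05) and single-gene windows at 7.85% (Fisher's exact test, adjusted p = 0.00866). GAGAGA was at 18.8%, against 6.25% of flanks and 26.1% of single-gene windows, and CTGCGTCT at 8.06%, against 0.806% and 11.98%. Both passed the exact binomial test against the flank (adjusted p = 2.63e-08 each) and Fisher's exact test against single-gene windows (adjusted p = 0.00727 and 0.0349). In all, 7 of the 14 differed from single-gene regions, and TGTTTGC alone was the more frequent in divergent ones. The median GC content was 44.6% in divergent windows, 37.6% in their flanks and 43.6% in single-gene windows, and its part in these differences was not tested.

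Over all 7-base sequences, 3339 could be tested against the flank, and 269 (8.06%) were more frequent and 120 less frequent at divergent summits (exact binomial test, adjusted p under 0.05). First by p was CAAACAC, which overlaps the reverse complement of TGTTTGC, with 59 regions and 3 flanks. Next came GAGCGCA with 50 regions and 2 flanks. CTGAAAA, found in 14 regions and 74 flanks, was first among those below the flank. Flank centres lay inside protein-coding genes in 85.5% of divergent regions, whereas 87.1% of summits lay outside them. The part of this contrast in these counts was not tested.

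A comparison of all 7-base sequences between divergent and single-gene promoter regions was added after the data were seen. Of 5536 sequences, 37 (0.668%) were more frequent and 11 less frequent in divergent windows (Fisher's exact test, adjusted p under 0.05). ACCGTAC led, in 43 of 496 divergent windows (8.67%, exact 95% interval 6.35 to 11.5%), against 15 of 1286 single-gene windows (1.17%, 0.654 to 1.92%), with an adjusted p of 6.63e-10 by Fisher's exact test. It stood in 1 flank window and in 0.936% of all promoters. The genome has 5982 copies of ACCGTAC in 100272607 bases, and whether promoters hold more or fewer than that rate was not tested. It also stood in 0.836% of windows at the midpoints of head-to-head gaps without a region and in 4.17% of those with one.

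ACCGTAC was found at pairs of many kinds. The strongest were rps-20/ekl-4 (51.1 in replicate 1 and 46.3 in replicate 2), eef-1A.1/rfc-4 (49.5 and 43.6) and rps-10/rpl-24.1 (28.1 and 45.1), and it also stood at snr-3/rsp-5, clsp-1/eef-2, pas-4/rpb-3 and lin-53/nra-2. Its share was 20% in the 35 regions of ribosomal protein genes and 7.81% in the other 461, and without the ribosomal protein regions it still differed from single-gene regions (7.81 against 1.10%, Fisher's exact test, adjusted p = 7.75e-08). Among the 43 windows with ACCGTAC 12 also held TGTTTGC (27.9%), and 59 of the other 453 did (13.0%).

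The longer stretch that ends in ACCGTAC has 13 copies in the genome, of which 8 lay within 100 bp of a divergent summit and 10 within 100 bp of a summit of the strongest 3000. The stretch was defined from sites near divergent summits, so copies there are counted by construction and the share supports nothing. TGAAACNAGTG alone has 434 copies. With the summits near it, signals in replicate 1 and replicate 2 were 28.8 and 25.4 at rps-23/dpm-3, 20.6 and 17.1 at rde-4/cox-14, 14.6 and 14.2 at rpl-21/C14B9.10, 16.9 and 13.0 at cup-14/ndub-8 and 15.5 and 4.56 at rpn-5/scc-1. The stretch lay 4 to 23 bp from the summit in these 5. These pairs include ribosomal, respiratory chain and proteasome genes, with rpn-5 facing scc-1, which encodes a cohesin subunit.

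Other sequences among the 37 formed overlapping groups. CGAGACC stood in 49 divergent windows (9.88%), against 2.95% of single-gene windows (Fisher's exact test, adjusted p = 3.10e-05), and GAGACCC and GCGAGAC overlap it. CGCTCCA stood in 59 (11.9%), against 4.28% (Fisher's exact test, adjusted p = 5.57e-05), and GCTCCAC overlaps it. All 3 leading sequences were rare in the flanks, with 1.61% for CGAGACC and 1.01% for CGCTCCA. The reverse was seen for ACACACA, in 3.23% of divergent and 9.02% of single-gene windows (Fisher's exact test, adjusted p = 0.00515).

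**Figure D5:**
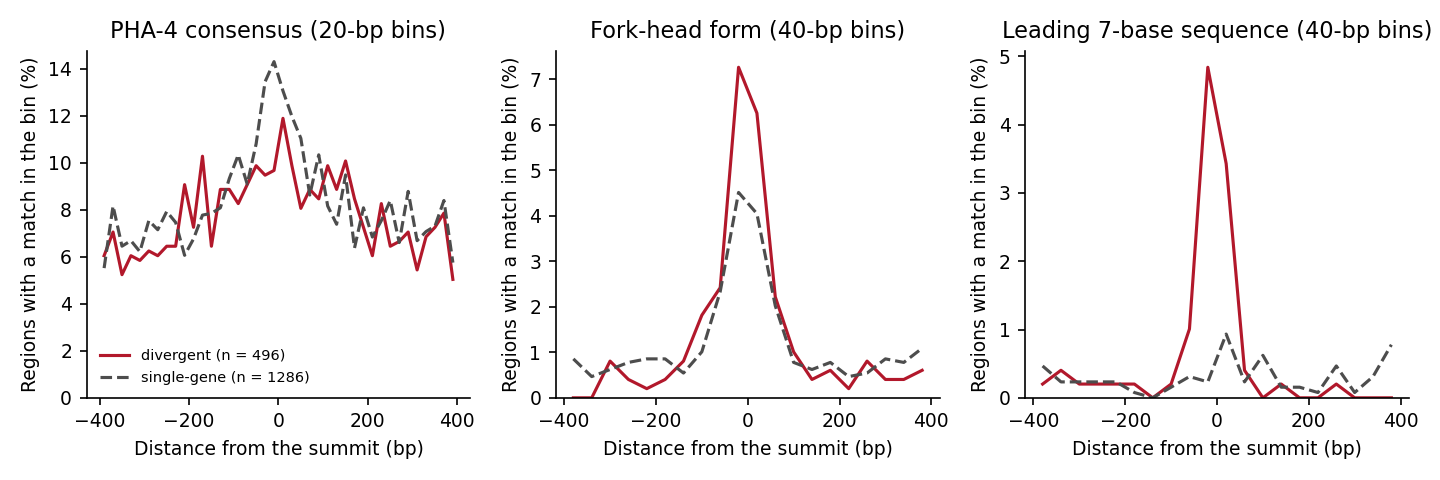
Percent of divergent (red) and single-gene promoter (dashed grey) regions with a match at each distance from the summit (bp), for the PHA-4 consensus TRTTKRY (left), its form TGTTTGC (middle) and ACCGTAC (right). In the 40 bp below the summit TGTTTGC stood in 7.26% of divergent and 4.51% of single-gene regions, and ACCGTAC in 4.84% and 0.233%. In the 40 bp above it the values were 6.25% and 4.04% for TGTTTGC and 3.43% and 0.933% for ACCGTAC.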

How the data were processed

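PHA-4 ChIP-seq was measured in 2 replicates of 1 group. Per the deposited manifests, the authors called each replicate's list (21039 and 20807 regions) and the pooled list (30000) against a control and kept background regions as input for IDR, which gave a list of 1484. The authors deposited a signal value for each region, whose scale is not stated, and a summit offset. Which caller made the lists, and with which IDR cutoff, is not given in the sources used here. Control reads were not analysed here, no read counts are given, and so the depth is unknown. Only the ce11 lists were used.

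Genes were those of Ensembl release 115 for WBcel235. Pair genes are those with the nearest 5′ ends. Replicate values were taken from the strongest of that replicate's regions whose summit was at most 150 bp away. Named are the 20 strongest members, the 5 shortest and 5 longest gaps, pairs within 1 gene group, the 2 strongest of each group and the members at the limit, and others were named after their values were seen. The members and lists were chosen with earlier results of these data known. Gene groups were formed from the letters before the hyphen of gene names. A 7-base sequence needed at least 10 regions in which the windows differed (against flanks) or 10 regions in all (against single-gene regions). The exact binomial test and the Benjamini-Hochberg adjustment were tried on simulated windows with a planted sequence, and Fisher's exact test was not. The simulated summit and flank windows had the same base composition, unlike the data. Exact binomial intervals (95%) reflect only how many regions or genes were counted. Nothing in the labels beyond the replicate numbers says how separate the cultures were. The software was SciPy 1.17.1, pandas 2.3.3, NumPy 2.4.6 and, for plots, matplotlib 3.10.9 under Python 3.11.15. Alternatives covered the windows, annotated ends, region lists, single replicates, motif and flank windows and, added after the data were seen, 3 subsets of regions.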

Additional observations from a re-analysis of the deposited data

How the results depend on the processing

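The number of divergent regions was 287 in the IDR list and 770 among the strongest 6000, shares of 19.3 and 12.8%. Windows of 500 and 100 bp gave 11.6% and a median gap of 396 bp, and windows of 2000 and 200 bp gave 24.3% and 746 bp. Replicate summits within 50 bp matched in 82.1%. From single replicates' lists the number was 467 to 481. The excess of TRTTKRY over the flank was 5.44 points with flanks 150 bp away, and from single replicates 11.6 to 15.4 points. Its deficit against single-gene regions was −5.18 points in windows of 25 bp (Fisher's exact test, adjusted p = 0.0926) and −5.35 points for summits 0 to 300 bp upstream. The excess of TGTTTGC over single-gene regions missed the threshold in the IDR list (3.23 points), in windows of 25 bp (3.43), for summits 0 to 300 bp upstream (3.71) and without replicate 1 (3.61), against 4.70 without replicate 2. The causes were not tested. The excess of ACCGTAC over single-gene regions passed in all 13 alternatives, and that of TGTTTGC over the flank in all 15. Ribosomal protein genes with a divergent region numbered 31 to 43. No paired analysis was possible because there is 1 group.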
